A study of Mus musculus with 6 samples.

Results

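The genes described here make up the cell's NRF2, thioredoxin and glutathione antioxidant system. The 44 genes were listed by name and sorted by role into 8 classes, and 38 of them were measured by a probe set that the array annotation gives to that gene alone. Where a gene had several such probe sets, the one with the highest mean over all 6 arrays was kept. Of the 6 genes without a value, Prdx1, Gstm5, Esd and Ftl1 had only probe sets shared with other gene symbols, and no probe set was listed for Prdx5 or Prdx6 in the annotation used. Over the whole array 22180 genes were tested.

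Expression was measured on Affymetrix Mouse Gene 2.0 ST arrays in CD4+ T cells from spleens of wild-type female C57BL/6 mice about 8 weeks old. One group of 3 arrays came from cells given 100 µM icilin in DMSO for 24 h, and the other group of 3 from cells given DMSO alone for the same time. All cells had first been stimulated for 24 h with antibodies to CD3 and CD28 at 10 µg/mL each, and all were grown in medium that contained 2-ME, a thiol reductant. The same 3 mice supplied both groups. Icilin is a synthetic cooling compound known as an agonist of the channel TRPM8.

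NRF2, encoded by Nfe2l2, is a transcription factor that the adaptor KEAP1 marks for degradation in unstressed cells. When reactive cysteines of KEAP1 are modified, NRF2 accumulates, pairs with a small MAF protein and binds antioxidant response elements near genes for thiol reduction, glutathione synthesis, quinone detoxification and iron storage. Thioredoxin and glutathione are the main thiol reductants that such genes supply, and in T cells both are known to support the burst of growth that follows activation.

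With icilin, 5 of the 38 measured genes rose and 2 fell, all by less than 1.5-fold. Those that rose were Glrx, Txnrd1, Nfe2l1, Hmox1 and Nfe2l2, with log2 fold changes between 0.24 and 0.55, and those that fell were Ugdh (-0.54) and Gstt1 (-0.52). Here "rose" and "fell" mean a limma p-value, adjusted over all 22180 genes, under 0.1, with no fold limit. In all 7 genes the 3 icilin arrays lay wholly on one side of the 3 vehicle arrays. That adds no support, since the 7 genes were picked by their p in these same arrays. The 7 genes are 18.4% of the members. Over all genes tested, 5.28% passed the same limit, with 2.27% higher and 3.00% lower. Most members are brightly measured (34 of 38 at or above the median brightness), and among genes of that brightness 9.02% passed and 3.88% passed in the higher direction. These shares describe a list that was not chosen independently of these data. Leaving out 1 array took the count of 7 to 4 (when the array was replicate 1 of either group or replicate 3 of icilin) or to 5 (any other array), and the share of all genes to between 2.57% and 4.01%.

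With the fold limit of 1.5 added, which are the study's own limits, limma called 0 of 38 members, as did SAM, where 1.40% of all genes were called by limma and 1.48% by SAM. As every member changed by less than 1.5-fold, both counts of 0 follow from the fold limit alone. An unadjusted p under 0.05 was reached by 9 members in the higher direction and by 5 in the lower (23.7% and 13.2% of members, against 9.09% and 8.05% of all genes). The groups did not overlap in 16 members, 9 higher and 7 lower, which is 42.1% against 24.1% of all genes (13.6% higher and 10.5% lower) and 36.8% of the brighter ones. That share lies near the one for genes of like brightness. The median log2 fold change over the members was 0.03, and over all genes it was 0.01, with 57.9% of members and 53.0% of all genes above 0.

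**Figure D1:**
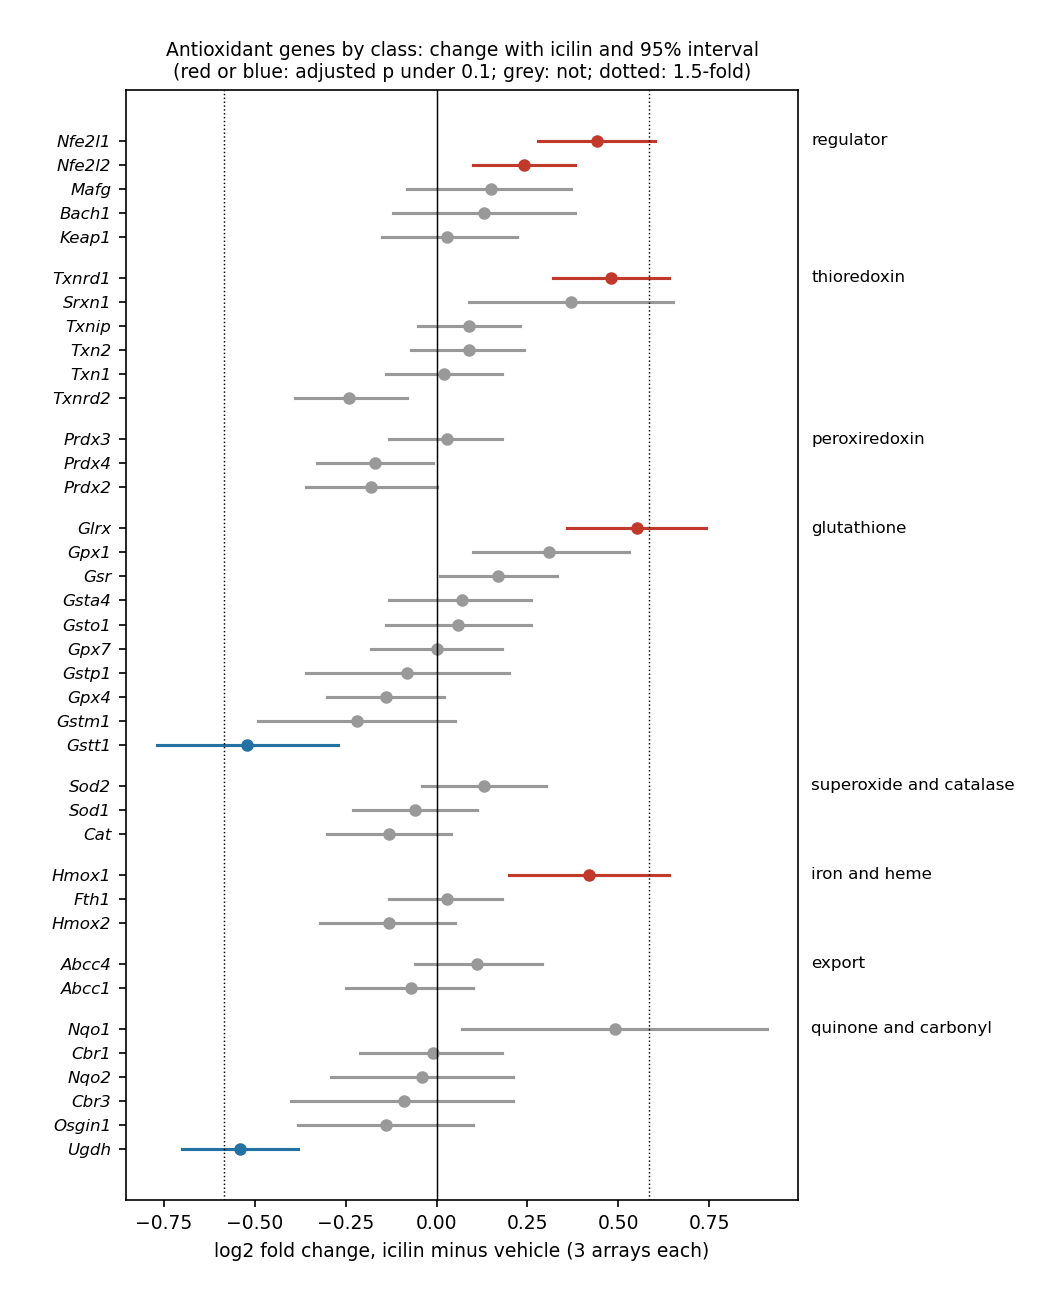
Log2 fold change (icilin minus vehicle, x axis) of the 38 measured antioxidant genes, sorted by class and size, with 95% intervals from limma. Red and blue points are the 5 genes that rose and the 2 that fell at an adjusted p under 0.1, and every point lies between the dotted lines at 1.5-fold.

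The CD4+ T cell label was set against marker genes. All 8 measured T cell markers, among them Cd3e, Cd4 and Thy1, had mean log2 levels of 9.07 or more over the 6 arrays, and Cd28 was higher in icilin arrays (0.34, adjusted p = 0.0529). Of 26 measured markers of other blood and spleen cell types, 1 passed the test, the B cell gene Ms4a1 (5.09 in icilin and 4.07 in vehicle arrays). The mean log2 level over 5 B cell markers was 5.01 to 5.06 in icilin and 4.72 to 4.82 in vehicle arrays, and Ms4a1 differed most of these (1.01); Pax5 differed by 0.21, Blnk by 0.10, Cd79a by 0.09 and Cd79b by -0.01, and none of these 4 passed. For 8 macrophage, monocyte and granulocyte markers it was 3.50 to 3.60 with icilin and 3.49 to 3.67 with vehicle, for 4 dendritic cell markers 3.89 to 3.97 and 4.0 to 4.08, for 6 CD8 T and natural killer markers 4.11 to 4.19 and 4.10 to 4.34, and for 3 red cell and platelet markers 3.76 to 3.83 and 3.91 to 4.13. Of the 6 CD8 T and natural killer markers, 3 had a change above 0 and 3 below. Cd8b1 measured 7.08, 6.63 and 6.88 with icilin and 6.51, 6.55 and 6.35 with vehicle (0.39, limma adjusted p = 0.167). Klrb1c differed by -0.52 (adjusted p = 0.135), and neither passed. The part of cells of these other types in the changes below was not tested. In a bulk sample fewer cells of a type and less RNA per cell cannot be told apart.

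Promoters of 5 genes are printed to show the letters of the antioxidant response element in genes that rose (Txnrd1, Nfe2l2 and the glutathione synthesis gene Gclm, which is not a member) and in 1 that fell (Ugdh). The core of the element, TGACNNNGC, was searched on both strands (GCNNNGTCA on the other strand; the motif does not overlap another searched one) in windows from 250 bases before to 50 after each gene's start (RefSeq, GRCm38.p6). The windows are printed 5′ to 3′ along the gene, with each match in capitals. Glrx is shown as a gene that rose without a match in its window.
Txnrd1 (chr10:82858956-82859255, + strand): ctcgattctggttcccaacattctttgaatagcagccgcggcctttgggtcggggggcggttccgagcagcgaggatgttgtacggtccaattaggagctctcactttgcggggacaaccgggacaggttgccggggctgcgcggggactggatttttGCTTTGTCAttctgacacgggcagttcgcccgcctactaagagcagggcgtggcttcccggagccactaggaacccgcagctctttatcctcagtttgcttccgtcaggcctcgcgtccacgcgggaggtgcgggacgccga
Nfe2l2 (chr2:75704614-75704913, - strand): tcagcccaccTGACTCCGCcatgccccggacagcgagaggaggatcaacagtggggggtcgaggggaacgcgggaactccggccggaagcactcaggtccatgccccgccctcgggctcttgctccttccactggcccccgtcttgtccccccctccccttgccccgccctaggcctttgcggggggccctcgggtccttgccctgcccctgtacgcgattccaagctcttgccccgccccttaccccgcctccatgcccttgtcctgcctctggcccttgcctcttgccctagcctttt
Gclm (chr3:122245307-122245606, + strand): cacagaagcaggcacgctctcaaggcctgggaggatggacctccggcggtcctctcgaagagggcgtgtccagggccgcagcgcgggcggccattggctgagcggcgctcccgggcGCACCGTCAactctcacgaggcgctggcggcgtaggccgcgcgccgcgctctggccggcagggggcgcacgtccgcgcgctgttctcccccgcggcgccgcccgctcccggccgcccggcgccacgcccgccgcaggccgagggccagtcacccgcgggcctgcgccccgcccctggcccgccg
Ugdh (chr5:65435793-65436092, - strand): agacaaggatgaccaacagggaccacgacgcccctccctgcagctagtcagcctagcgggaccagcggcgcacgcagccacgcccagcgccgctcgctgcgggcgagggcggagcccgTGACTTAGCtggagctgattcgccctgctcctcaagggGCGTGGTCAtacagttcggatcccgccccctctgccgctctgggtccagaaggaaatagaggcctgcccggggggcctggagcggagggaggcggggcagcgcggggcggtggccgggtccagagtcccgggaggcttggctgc
Glrx (chr13:75839635-75839934, + strand): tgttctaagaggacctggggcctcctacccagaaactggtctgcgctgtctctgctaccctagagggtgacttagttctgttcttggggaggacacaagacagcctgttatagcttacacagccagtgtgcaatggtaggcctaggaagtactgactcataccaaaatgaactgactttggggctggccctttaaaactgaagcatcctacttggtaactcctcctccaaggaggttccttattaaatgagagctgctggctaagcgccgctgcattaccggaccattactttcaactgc

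Of 34 measured members with a window in the table, 7 (20.6%) held the core motif at 1 or more of their starts, against 14.0% of all genes in the table. These were Txnrd1, Nfe2l2, Ugdh, Srxn1, Mafg, Abcc4 and Sod1. The match in Txnrd1 begins 92 bases before the start shown, which is 1 of 3 listed for that gene, and the match in Nfe2l2 lies 240 bases before. Ugdh, which fell, holds 2 matches, at 132 and 94 bases before its start. Of the 5 members that rose, 4 had a window and 2 of these a match; of the 2 that fell, 1 had a match; and of 28 that did not pass, 4 had one. A match is a run of letters in this window and not a measured binding site, and elements farther from the start were not searched.

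Among the 5 regulators Nfe2l1 and Nfe2l2 rose. Nfe2l1 encodes NRF1, an endoplasmic reticulum-bound relative of NRF2 that is known for controlling proteasome genes. Its log2 level was 8.08, 8.02 and 8.04 in icilin arrays, against 7.56, 7.57 and 7.70 in vehicle arrays, a log2 fold change of 0.44 ± 0.07 (SE; limma adjusted p = 0.0205). Nfe2l2 itself stood at 8.73, 8.74 and 8.68 in icilin arrays and 8.44, 8.51 and 8.48 in vehicle arrays (0.24 ± 0.06, adjusted p = 0.0991). The groups were apart in both genes, and within each group the arrays spread over no more than 0.14. Nfe2l2 is just inside the limit: without any 1 of the 6 arrays its change was 0.22 to 0.26 with an adjusted p of 0.191 to 0.249. Nfe2l1 passed in each of these 6 fits (0.41 to 0.49, adjusted p 0.0407 to 0.0883). The other 3 regulators did not pass. They were Mafg, a small MAF partner of NRF2 (0.15), Bach1, a heme-sensing repressor of the same DNA elements (0.13), and Keap1 (0.03). The class median was 0.15, between 0.11 and 0.24 with single arrays left out. It was 0.23 without icilin replicate 2 and 0.24 without icilin replicate 3.

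For Keap1 the array carries a second probe set, and it disagreed with the first. On the brighter one, used above, Keap1 measured 7.60, 7.76 and 7.63 in icilin arrays and 7.53, 7.65 and 7.71 in vehicle arrays, and the groups overlapped. On the second one the log2 signal was 6.58, 6.64 and 6.63 in icilin arrays, against 7.63, 7.37 and 7.65 in vehicle arrays. All 3 icilin arrays were lower there, by a log2 fold change of -0.93 ± 0.10 (limma adjusted p = 0.0199 in a fit over every probe set, where 0.866% of 41345 probe sets were called). That is past 1.5-fold and larger in size than the change of any of the 38 members. With both probe sets averaged, Keap1 differed by -0.45 ± 0.07 (adjusted p = 0.0227). So whether Keap1 mRNA was lower depends on the probe set, and no direction is given for the gene. Cbr1, the other member with 2 single-gene probe sets, differed by -0.01 on one and 0.01 on the other.

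**Figure D2:**
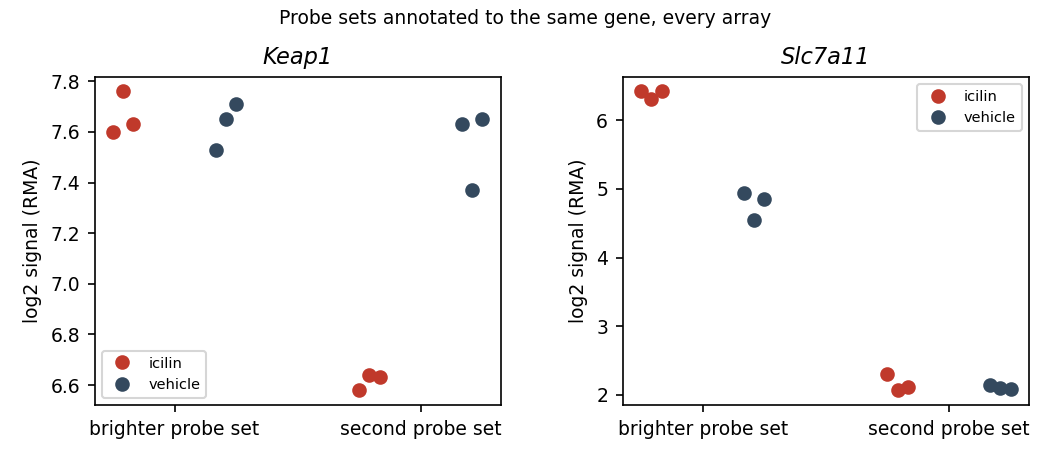
Log2 signal (y axis) in each of the 3 icilin (red) and 3 vehicle (dark) arrays for the 2 probe sets annotated to Keap1 (left) and to the cystine transporter gene Slc7a11 (right). The groups overlap on the brighter Keap1 probe set and lie apart by 0.93 on the second, and for Slc7a11 they lie apart by 1.60 on the brighter one and overlap on the second, which is dim at 2.07 to 2.31.

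In the thioredoxin class the reductase rose and the thioredoxins did not pass. Txnrd1, the cytosolic selenoprotein that passes electrons from NADPH to thioredoxin, had log2 levels of 9.97, 9.96 and 10.03 in icilin arrays and 9.59, 9.49 and 9.44 in vehicle arrays. It was higher in 3 of 3 icilin arrays, by 0.48 ± 0.07 or 1.39-fold (limma adjusted p = 0.0156), and passed without any 1 array (0.44 to 0.52, adjusted p 0.0312 to 0.0750). Its substrate Txn1, cytosolic thioredoxin, differed by 0.02 and overlapped, with a 95% interval of -0.14 to 0.18. Mitochondrial thioredoxin, Txn2, differed by 0.09. The mitochondrial reductase Txnrd2 measured 6.99, 6.93 and 7.01 with icilin and 7.28, 7.17 and 7.19 with vehicle, lower in every icilin array by 0.24 on the log2 scale, which did not pass (adjusted p = 0.123). Srxn1, the sulfiredoxin that repairs overoxidised peroxiredoxins and a known NRF2 target, had 6.35, 6.31 and 6.29 in icilin arrays against 6.13, 5.67 and 6.02 in vehicle arrays (0.37 ± 0.12, adjusted p = 0.174). The 3 icilin values were above all vehicle values, and the vehicle arrays spread widely (SD 0.24). Txnip, an inhibitor of thioredoxin and of glucose uptake, stood at 8.81, 8.80 and 8.81 with icilin and 8.67, 8.76 and 8.71 with vehicle, a difference of 0.09 (adjusted p = 0.505).

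None of the 3 measured peroxiredoxins, the peroxidases that thioredoxin reduces, passed the test. At an unadjusted p under 0.05, 2 of the 3 were lower, as were 8.05% of all genes. Prdx4, the endoplasmic reticulum form and the member with the smallest p, measured 6.27, 6.39 and 6.35 in icilin arrays and 6.54, 6.55 and 6.45 in vehicle arrays (-0.17 ± 0.07, limma adjusted p = 0.256). Prdx2, a cytosolic form, differed by -0.18 and Prdx3, the mitochondrial form, by 0.03. For Prdx2 and Prdx4 the groups did not overlap, as in 24.1% of all genes and 36.8% of those at or above the median brightness. With 3 genes measured, no change of the class is read from these counts. SAM, which also required 1.5-fold, could call none of the 3.

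**Figure D3:**
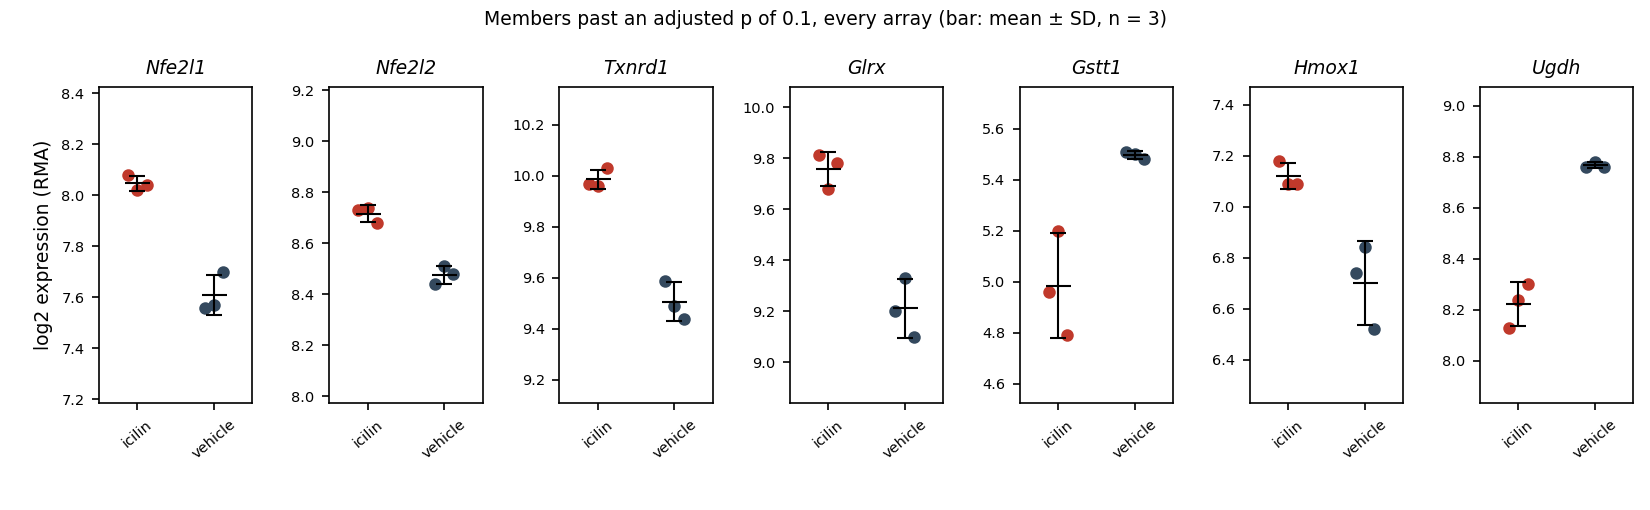
Log2 expression (y axis, each panel spanning the same range) in every array for the 7 antioxidant genes that passed an adjusted p of 0.1, icilin left of vehicle, with mean ± SD of 3 arrays. Nfe2l1, Nfe2l2, Txnrd1, Glrx and Hmox1 are higher and Gstt1 and Ugdh lower in all 3 icilin arrays, and the widest spread within a group is that of Gstt1 with icilin (SD 0.21).

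Of 10 measured genes of glutathione use, Glrx rose and Gstt1 fell. Glrx encodes glutaredoxin, which removes glutathione from protein thiols. Its log2 level was 9.81, 9.68 and 9.78 in icilin arrays and 9.20, 9.33 and 9.10 in vehicle arrays, the largest rise of the 38 genes at 0.55 ± 0.08 or 1.46-fold (limma adjusted p = 0.0178). It passed without any 1 array (0.49 to 0.61, adjusted p 0.0367 to 0.0763). Without icilin replicate 2 or vehicle replicate 2 it was also past 1.5-fold (0.59 and 0.61). Gpx1, the cytosolic selenoprotein that reduces hydrogen peroxide with glutathione, stood at 9.68, 9.44 and 9.37 with icilin and 9.17, 9.20 and 9.18 with vehicle. All icilin arrays were above all vehicle arrays, by 0.31 ± 0.09, short of the limit (adjusted p = 0.143). Gsr, which regenerates reduced glutathione, was likewise apart at 8.85, 8.75 and 8.90 with icilin against 8.69, 8.68 and 8.61 with vehicle (0.17, adjusted p = 0.263). Gpx4, the phospholipid hydroperoxidase that limits ferroptosis, differed by -0.14 (adjusted p = 0.344), with groups apart in the lower direction.

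Of 5 measured glutathione transferase genes, whose products join glutathione to electrophiles, 1 fell and 0 rose. Gstt1, of the theta class, measured 4.96, 5.20 and 4.79 in icilin arrays and 5.51, 5.50 and 5.48 in vehicle arrays (-0.52 ± 0.11, limma adjusted p = 0.0524). Its vehicle arrays agreed closely and its icilin arrays did not. The test was passed without icilin replicate 2, then also past 1.5-fold (-0.62, adjusted p = 0.0311), and missed without any 1 of the other 5 arrays (-0.52 to -0.42, adjusted p 0.114 to 0.162). Gstt1 stands between Gstt3 and Gstt4 on chromosome 10, with Gstt2 next, in the RefSeq order of genes. Gstt3 fell more, at 4.45, 4.46 and 4.28 with icilin against 5.35, 5.21 and 5.18 with vehicle (-0.85 ± 0.08, adjusted p = 0.00343), and Gstt2 differed by -0.26 (adjusted p = 0.226) with groups apart. Theta genes are similar in sequence, so signal shared between their probe sets cannot be told apart from separate changes. Gstm1 differed by -0.22, Gstp1 by -0.08, Gsto1 by 0.06 and Gsta4 by 0.07, and Gpx7, an endoplasmic reticulum peroxidase, by 0.00. None of these 5 passed. The class median was 0.03, and -0.02 to 0.05 with single arrays left out; the lowest of these came without icilin replicate 3.

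The superoxide and peroxide scavengers Sod1, Sod2 and Cat did not pass, and their groups overlapped. Catalase, Cat, had the smallest p of the class, at 9.84, 9.92 and 10.00 in icilin arrays against 10.04, 10.11 and 10.00 in vehicle arrays (-0.13 ± 0.07, limma adjusted p = 0.424). Cytosolic superoxide dismutase, Sod1, differed by -0.06 with an interval of -0.23 to 0.11, and the mitochondrial enzyme Sod2 by 0.13 with an interval of -0.04 to 0.30. In this class 0 genes reached an unadjusted p under 0.05, and all changed by less than the 1.5-fold that SAM also required.

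Of 3 measured genes of heme breakdown and iron storage, the inducible heme oxygenase rose. Hmox1, which releases iron, carbon monoxide and biliverdin from heme and is under both NRF2 and BACH1 control, had log2 levels of 7.18, 7.09 and 7.09 in icilin arrays and 6.74, 6.84 and 6.52 in vehicle arrays. The change was 0.42 ± 0.09, or 1.34-fold (limma adjusted p = 0.0680), higher in all 3 icilin arrays. It was within the limit without vehicle replicate 2 (0.49, adjusted p = 0.0857) and outside it without any 1 of the other 5 arrays (0.33 to 0.44, adjusted p 0.128 to 0.200). Hmox2, the constitutive form, differed by -0.13 and overlapped. Fth1, the ferritin heavy chain, differed by 0.03 with an interval of -0.13 to 0.18.

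The exporters of glutathione conjugates did not pass either. Abcc4 stood at 6.90, 6.81 and 7.01 in icilin and 6.81, 6.75 and 6.82 in vehicle arrays (0.11 ± 0.07, limma adjusted p = 0.507), and Abcc1 differed by -0.07. Both overlapped between groups.

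Among 6 enzymes of quinone, carbonyl and sugar acid metabolism, Ugdh fell. It encodes UDP-glucose dehydrogenase, which makes the glucuronic acid donor used in detoxification and in matrix sugar chains. Its log2 level was 8.13, 8.24 and 8.30 in icilin arrays, against 8.76, 8.78 and 8.76 in vehicle arrays (-0.54 ± 0.07, limma adjusted p = 0.00920, the smallest among the members). It passed without any 1 array (-0.58 to -0.50, adjusted p 0.0257 to 0.0516). Nqo1, the quinone reductase often used as a readout of NRF2 activity, was dim and uneven. It measured 4.50, 4.12 and 4.50 with icilin and 3.75, 3.66 and 4.25 with vehicle, so that 1 vehicle array lay among the icilin arrays (0.49 ± 0.18, adjusted p = 0.227, 95% interval 0.07 to 0.91). Without vehicle replicate 3 the change was 0.67 with an adjusted p of 0.0956, past both limits, and with any other array left out it was 0.37 to 0.61 with an adjusted p of 0.216 to 0.447. Nqo2 differed by -0.04, the carbonyl reductases Cbr1 and Cbr3 by -0.01 and -0.09, and Osgin1, a growth inhibitor induced by oxidants, by -0.14. In these 4 the groups overlapped.

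Several members come as pairs of related proteins. For 9 such pairs, chosen after their values were seen, the within-array difference of the 2 log2 signals was taken. Its shift between icilin and vehicle arrays is given as a description. An exact test with 3 arrays a group can give no p below 0.1, so it cannot decide any pair. The smallest adjusted p of that test over the 9 pairs was 0.18. Each shift restates the members' own changes. Its SE comes from the spread of the 3 differences in each group alone, without the prior that limma adds. It is thus not comparable with the limma SEs given for single genes. It was 0.72 ± 0.03 for Txnrd1 minus Txnrd2 (SE, n = 3 each), 0.56 ± 0.09 for Hmox1 minus Hmox2, 0.46 ± 0.12 for Gpx1 minus Gpx4 and 0.20 ± 0.05 for Nfe2l1 minus Nfe2l2. It was 0.53 ± 0.26 for Nqo1 minus Nqo2, 0.08 ± 0.21 for Cbr1 minus Cbr3, -0.07 ± 0.06 for Txn1 minus Txn2, -0.19 ± 0.08 for Sod1 minus Sod2 and -0.19 ± 0.07 for Abcc1 minus Abcc4.

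Neighbouring steps of the pathway held genes with larger changes than any of the 38 measured members. Of 180 further genes in 9 lists, which were chosen with earlier results of these data known, 164 were measured. Of these, 14 rose and 12 fell (15.9% together), where 2.27% and 3.00% of all genes did. At or above the median brightness, where 122 of the 164 lay, 9.02% of genes passed in either direction. With the fold limit 5 were called higher and 2 lower, where 0.370% and 1.03% of all genes were called in those directions. The densest list was glutathione synthesis, cystine supply and breakdown, in which 6 of 16 rose and 1 fell (43.8%), with a median of 0.10. Of these 16 genes, 13 lay at or above the median brightness. Slc7a11, the cystine importer, stood at 6.42, 6.31 and 6.42 in icilin arrays and 4.94, 4.55 and 4.85 in vehicle arrays. Cth, the last enzyme of cysteine synthesis, had 9.20, 9.13 and 9.12 with icilin against 8.16, 8.05 and 8.23 with vehicle, 2.00-fold higher. Gclm, the modifier subunit of the enzyme that limits glutathione synthesis, rose as well (8.20, 8.30 and 8.18 with icilin; 7.76, 7.75 and 7.69 with vehicle; 0.49 ± 0.07, limma adjusted p = 0.0113). Its catalytic partner Gclc (0.30, adjusted p = 0.0897) and the Slc7a11 partner Slc3a2 (0.30, adjusted p = 0.0541) rose less than 1.5-fold, while Gss, the second enzyme of synthesis, differed by -0.03. Chac1, which breaks glutathione down inside the cell, rose (7.79, 7.51 and 7.64 with icilin; 6.94, 6.86 and 6.84 with vehicle; 1.70-fold). Ggt7, a member of the gamma-glutamyltransferase family, fell (5.26, 5.22 and 5.39 with icilin; 6.07, 6.06 and 5.91 with vehicle; -0.72 ± 0.08, adjusted p = 0.00539). Slc7a11, Cth and Chac1 are known targets of ATF4, the amino acid stress factor. Which factor acted on the genes of these lists was not tested.

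**Figure D4:**
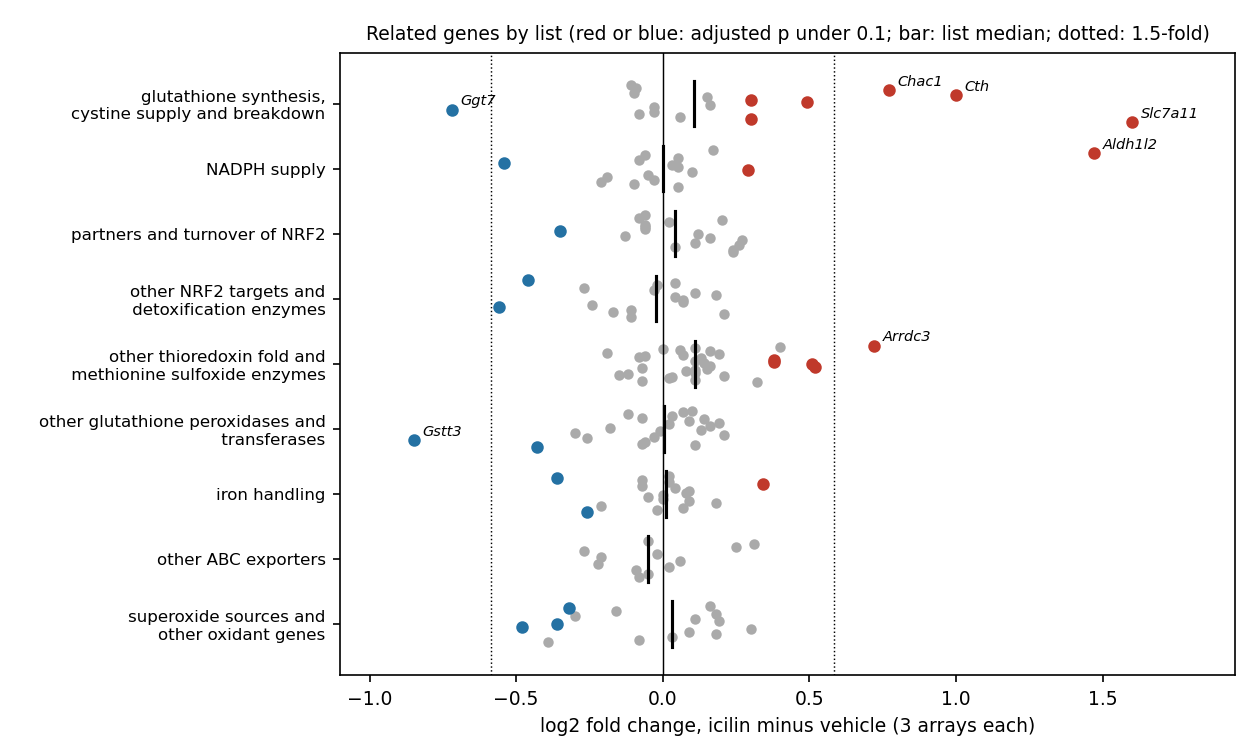
Log2 fold change (icilin minus vehicle, x axis) of 164 genes in 9 lists that neighbour the antioxidant genes, 1 point a gene, red or blue where the adjusted p is under 0.1, with the list median as a bar and names at genes also past 1.5-fold (dotted). Slc7a11 (1.60) and Aldh1l2 (1.47) lie farthest to the right and Gstt3 (-0.85) farthest to the left.

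Of 16 measured genes listed under NADPH supply, 2 rose and 1 fell (18.8%, against 5.28% of all genes), with a median of 0.00. NADPH is the electron source of both reductase systems, and which listed enzymes yield it in these cells was not tested. Aldh1l2, a mitochondrial folate enzyme that yields NADPH, stood at 6.74, 6.83 and 6.93 with icilin against 5.37, 5.13 and 5.58 with vehicle. Mthfd2, another mitochondrial folate enzyme, rose by 0.29 (adjusted p = 0.0778) and Me2, a mitochondrial malic enzyme, fell by 0.54 on the log2 scale (adjusted p = 0.00551). The pentose phosphate gene Pgd differed by -0.21 (adjusted p = 0.178). Of 17 partners and turnover factors of NRF2, 0 rose and 1 fell, or 5.88% against 5.28% of all genes. It was Maff, a small MAF gene (-0.35 ± 0.08, limma adjusted p = 0.0640). Maff missed the limit without any 1 array (-0.40 to -0.29, adjusted p 0.107 to 0.186). The list median was 0.04, and an unadjusted p under 0.05 was reached by 5 genes higher and 1 lower (29.4% and 5.88%, against 9.09% and 8.05% of all genes). Sqstm1, which encodes the KEAP1-binding autophagy receptor p62, differed by 0.24 (adjusted p = 0.132).

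Of 16 other NRF2 target and detoxification genes, 0 rose and 2 fell (12.5%), with a median of -0.03. Over all genes 5.28% passed, to be set beside each share in this paragraph. An unadjusted p under 0.05 was reached by 1 in the higher and 4 in the lower direction (6.25% and 25.0%, where all genes had 9.09% and 8.05%). The 2 that fell were the epoxide hydrolase gene Ephx1 (-0.56, limma adjusted p = 0.0173) and the lipid hydrolase gene Abhd4 (-0.46 ± 0.06, adjusted p = 0.0111). Of 22 other glutathione peroxidases and transferases, 0 rose and 2 fell (9.09%), Gstt3 and Mgst3 (-0.43, limma adjusted p = 0.0812). Of 18 iron handling genes, 1 rose and 2 fell (16.7%). The heme exporter gene Flvcr1 rose (0.34 ± 0.06, limma adjusted p = 0.0303). The transferrin receptor gene Tfrc (-0.26, adjusted p = 0.0818) and Alas1, the first enzyme of heme synthesis (-0.36, adjusted p = 0.0565), fell. For Flvcr1 the limit was missed in 4 of the 6 fits without 1 array, those lacking replicate 2 or 3 of either group (0.32 to 0.35, adjusted p between 0.103 and 0.114). Of 12 other ABC exporters limma passed 0. An unadjusted p under 0.05 was reached by 1 in each direction (8.33% each, against 9.09% and 8.05% of all genes). All changed by less than 1.5-fold, so SAM could call none of them. Abcb6 had the smallest p (-0.27 ± 0.08, limma adjusted p = 0.146). Of 15 genes of superoxide sources and other oxidant enzymes, 0 rose and 3 fell. These were Nos2, the inducible nitric oxide synthase (-0.48 ± 0.08, adjusted p = 0.0242), the NADPH oxidase subunit gene Ncf4 (-0.36, adjusted p = 0.0502) and Cyb5r3, a cytochrome b5 reductase gene (-0.32, adjusted p = 0.0524). At an unadjusted p under 0.05, 2 of the 15 were higher and 6 lower, where all genes had 9.09% and 8.05%. The groups lay apart in 3 higher and 6 lower genes of this list, against 13.6% and 10.5% of all genes.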

How the data were processed

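Total RNA of 6 samples, 3 icilin and 3 vehicle, was hybridised to Affymetrix Mouse Gene 2.0 ST arrays. The deposited values are on a log2 scale: per the labels and the series design text, the authors summarised and normalised the probe signals by RMA, which makes array distributions alike, so a shift shared by the majority of genes is lost, and changes of dim genes are compressed. The genome build of the array annotation is not given in the sources used here.

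Of 41345 probe sets, 23521 had 1 gene symbol, 1814 several and 16010 none; the first kind was used, and the brightest was kept for the 1082 genes with more than 1. Genes were fitted with limma 3.58.1 in R 4.3.3 (lmFit, eBayes without trend), as icilin minus vehicle and two-sided, on 4 residual degrees of freedom and 3.07 from the prior, with Benjamini-Hochberg adjustment over 22180 genes. Called genes had an adjusted p under 0.1 and at least 1.5-fold, the study's limits. The median SE of a log2 fold change was 0.0911, and 3 arrays a group limit the precision. Samples came from 3 mice, and nothing ties a replicate number to a mouse, so no block was used. SAM was written anew (20 splits) and also required at least 1.5-fold. The fit was tested on simulated data.

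The members and lists were chosen with earlier results of these data known. All members are named; values by array are given for those past the adjusted p, for the member with the smallest p where a class had none, and for further members whose groups lay apart or that 1 array decided, which were chosen after their values were seen. Of related lists, called genes or the one with the smallest p are named, and others were added after their values were seen. Alternatives were the replicate block, trend and robust variances, median centring, quantile normalization, leaving out dim genes, averaging probe sets, leaving out each array, SAM, stricter limits and a fit over every probe set. Summaries used pandas 2.3.3 and numpy 2.4.6 under Python 3.11.15, and plots used matplotlib 3.10.9.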

Additional observations from a re-analysis of the deposited data

How the results depend on the processing

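Glrx, Txnrd1, Nfe2l1 and Ugdh passed the adjusted p of 0.1 under every alternative run on them, and Nfe2l2, Hmox1 and Gstt1 each lost it under at least 1, the replicate block included. The count of 7 members was 12 of 38 with trend and robust variances (11.8% of all genes passed there) and 12 of 34 with dim genes left out (23.1%), where all 7 were among the 12; it was 4 at an adjusted p under 0.05 (3.31%). In fits without 1 array it was 4 to 5, with fewer samples in each (2.57% to 4.01%). The count stayed at 7 with quantile normalization (5.42%) and with probe sets averaged (5.19%), but as 4 higher and 3 lower. Nfe2l2 dropped out in both. Txnrd2 came in as lower with quantile normalization (limma adjusted p = 0.0962), and Keap1 as lower with averaging. Txnrd2 was also among the 12 with trend and robust variances and among the 12 with dim genes left out. Members called at 1.5-fold were 0 in the main comparison and 0 to 2 with single arrays left out (Glrx and Gstt1 without icilin replicate 2, Glrx without vehicle replicate 2, Nqo1 without vehicle replicate 3), and all genes called were 311, 279 to 328 without single arrays and 87 at 2-fold and an adjusted p under 0.05. The median of the thioredoxin class was 0.09, and 0.11 with arrays centred on their median; those of the regulator and glutathione classes ranged over 0.11 to 0.24 and -0.02 to 0.05 without single arrays. With the replicate number as a block, 4 members passed (Nfe2l1, Txnrd1, Glrx and Ugdh) among 2.49% of all genes; same-numbered arrays did not deviate together (r = -0.00509, -0.0144 and -0.0216), and no array correlated best with its own number, so the numbers were not taken as pairs. For dim genes such as Nqo1, signal near background limits what can be read.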

Other observations

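Txnip belongs to the alpha-arrestins, a family of adaptors for protein degradation and nutrient transporter turnover, and 2 of its relatives were among the lists. Arrdc3 rose, at 7.19, 7.08 and 7.17 in icilin arrays against 6.21, 6.62 and 6.44 in vehicle arrays (0.72 ± 0.11, 1.65-fold, limma adjusted p = 0.0178). Arrdc4 measured 5.64, 5.24 and 5.56 with icilin and 5.15, 5.08 and 5.0 with vehicle, apart but short of the limit (0.40 ± 0.11, adjusted p = 0.127). Txnip differed by 0.09 with a 95% interval of -0.05 to 0.23. Whether the 3 genes' changes differ from each other was not tested.

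Of 32 measured genes of the wider thioredoxin fold, selenoprotein and methionine sulfoxide list, 5 rose and 0 fell (15.6%). The list median was 0.11, with 25 genes (78.1%) above 0. Over all genes 2.27% rose, the median was 0.01 and 53.0% were above 0. Of the list 29 genes lay at or above the median brightness, where 3.88% of genes rose. Besides Arrdc3, those that rose were the selenoprotein genes Selenow (0.51, limma adjusted p = 0.0332), Selenos (0.38, adjusted p = 0.0812) and Selenoh (0.38, adjusted p = 0.0991), and Sesn2, a stress-induced sestrin gene (0.52, adjusted p = 0.0543). Selenos had a second, dim probe set, which differed by -0.32 with overlapping groups. Of the other selenoprotein genes of the list, Selenof differed by 0.13, Selenot by 0.14, Selenok by 0.11, the thioredoxin reductase gene Txnrd3 by 0.32 and the methionine sulfoxide reductase gene Msrb1 by -0.19, and none of these 5 passed.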
